A study of Rattus norvegicus with 7 samples.

Results

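The Myc network transcription factors were taken as every probe set annotated to Myc, Mycn, Max, Mxd1, Mxd3, Mxd4, Mnt, Mlx or Mlxip, which gave 12 of the 20832 probe sets with 1 gene symbol and 9 of 14218 genes. These 9 genes were selected on their measured differences between NaF and vehicle in these same arrays, so their changes are given as a description and were not tested. The cells were ROE2, an immortalized oral epithelial line derived from the tongue of an 18-day-old fetus of a transgenic Wistar rat that carried a temperature-sensitive SV40 large T-antigen. All groups shared that transgene and the shift from 33 °C for growth to 37 °C for treatment, in DMEM/F12 medium with 2% serum. Cells received vehicle, which was sterilized water, or 2 mM sodium fluoride (NaF), a dose that induced cell death. Vehicle was measured at 0, 3, 6 and 12 h and NaF at 3, 6 and 12 h, on 1 rat genome array per condition. Each array held a pool of RNA from 3 independent experiments, so no condition had a replicate array, and ROE2 is a single line.

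Myc is a transcription factor that drives growth and proliferation. It binds DNA as a dimer with Max, mostly at the E-box CACGTG, and recruits coactivators there. The Mxd proteins and Mnt compete with Myc for Max, bind the same motif and recruit Sin3 corepressors with histone deacetylases. Mlx is a further partner, which dimerizes with some Mxd proteins, with Mnt and with the nutrient sensor Mlxip. In stratified epithelia, Myc belongs to the dividing basal cells, and Mxd1 to cells that leave the cycle and differentiate. The Myc mRNA is short-lived, so its level can move within hours.

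The E-box links the members to each other and to their targets, so the stretches that hold it are shown for the members and for the pair of ribosome biogenesis genes with the largest rises at 12 h. RefSeq promoter windows of build GRCr8, from 250 bases before to 50 after the gene start, were matched for 7 of the 9 members, and not for Myc and Mycn. CACGTG, which is its own reverse complement, was present in the windows of Max, Mxd4, Mnt and Mlx, 4 of 7 members (57.1%), against 7.08% of 27457 genes in the table and 11.0% of the 6498 tested genes with a window. The windows of Mxd1, Mxd3 and Mlxip did not hold these letters. The motif is in capitals below, and each stretch is read 5′ to 3′ on the strand of its gene and ends before the gene start.
Max, chr6:101395291-101395370, minus strand, motif 33 bases before the start: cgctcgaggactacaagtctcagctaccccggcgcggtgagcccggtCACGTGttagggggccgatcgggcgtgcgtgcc
Mxd4, chr14:80786547-80786626, plus strand, motif 197 bases before the start: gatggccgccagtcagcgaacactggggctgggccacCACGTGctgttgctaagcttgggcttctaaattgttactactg
Mnt, chr10:60197799-60197878, plus strand, motif 123 bases before the start: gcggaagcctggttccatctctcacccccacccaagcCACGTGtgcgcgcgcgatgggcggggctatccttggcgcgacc
Mlx, chr10:86519779-86519858, plus strand, motif 70 bases before the start: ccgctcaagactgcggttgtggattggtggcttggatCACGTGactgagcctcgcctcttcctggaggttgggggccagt
Gnl3, chr16:6219783-6219862, minus strand, motif 25 bases before the start: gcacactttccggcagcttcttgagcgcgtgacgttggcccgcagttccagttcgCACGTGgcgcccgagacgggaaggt
Nle1, chr10:68340181-68340260, minus strand, motif 10 bases before the start: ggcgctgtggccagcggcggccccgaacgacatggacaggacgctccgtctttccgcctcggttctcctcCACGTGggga
A match of letters is a description of the window and says nothing of binding in these cells.

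The deposited values were log2 signals that had already been normalized, with array medians of 5.32 to 5.35. The test took the probe sets that were brightest on any array, as many as the study counted as expressed, and the dimmest of them reached 7.14. Of the members, 7 of 9 genes and 9 of 12 probe sets passed this limit, which Mycn, Mxd3 and the dimmer Mlxip probe set did not reach. A change below is the NaF array minus the vehicle array of the same time on the log2 scale, and the spread is the SD or range of the 4 vehicle arrays of that probe set. Of the 11 epithelial markers, 9 were among the tested genes, all but Krt18 and Krt19, and no mesenchymal, leukocyte, endothelial or skeletal muscle marker was. Over all 11, the log2 signal in vehicle had a median of 10.94, and the lowest was 2.98. The summed epithelial signal was 15.60 to 15.66 in vehicle and 15.60, 15.60 and 15.35 at 3, 6 and 12 h of NaF.

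Myc was lower at 3 h of NaF, at the vehicle level at 6 h and higher at 12 h. Its log2 signal was 10.73, 10.95, 10.65 and 10.62 in vehicle at 0, 3, 6 and 12 h, a range of 0.34 with an SD of 0.15. With NaF it was 8.84, 10.71 and 11.62 at 3, 6 and 12 h. The 3 h NaF array was thus below all 4 vehicle arrays, the 6 h array lay among them and the 12 h array was above them all. The changes were -2.11, 0.05 and 1.01, a signal 4.31-fold lower at 3 h and 2.01-fold higher at 12 h. Against the vehicle mean and against the 0 h array, the change at 12 h was 0.89, under 2-fold. Among all tested probe sets, the Myc change against the array of the same time ranked 3 from the lowest at 3 h and 614 from the highest at 12 h. Between the NaF arrays themselves, Myc was 1.86 higher at 6 h than at 3 h and 0.92 higher at 12 h than at 6 h. In pooled RNA, fewer cells of a kind and less mRNA per cell cannot be told apart.

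The size of the Myc change at 3 h depended in part on the vehicle array used. The 3 h vehicle array had the highest Myc signal of the 4, and against the 0 h array the change was -1.88. That array also had the widest gap between the 3′ and 5′ control probes of beta-actin, 2.83 on the log2 scale, against 1.53 to 1.98 in the other vehicle arrays. With NaF the gap was 2.39, 1.77 and 2.15 at 3, 6 and 12 h. Its part in the Myc values was not tested. Mycn, the paralog of Myc in neural and embryonic tissue, was dim on every array, at 3.54, 3.25, 3.25 and 3.25 in vehicle and 3.33, 3.25 and 3.25 with NaF, and its changes were 0.07, -0.01 and 0.00. At this signal no change of Mycn could be read.

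**Figure D1:**
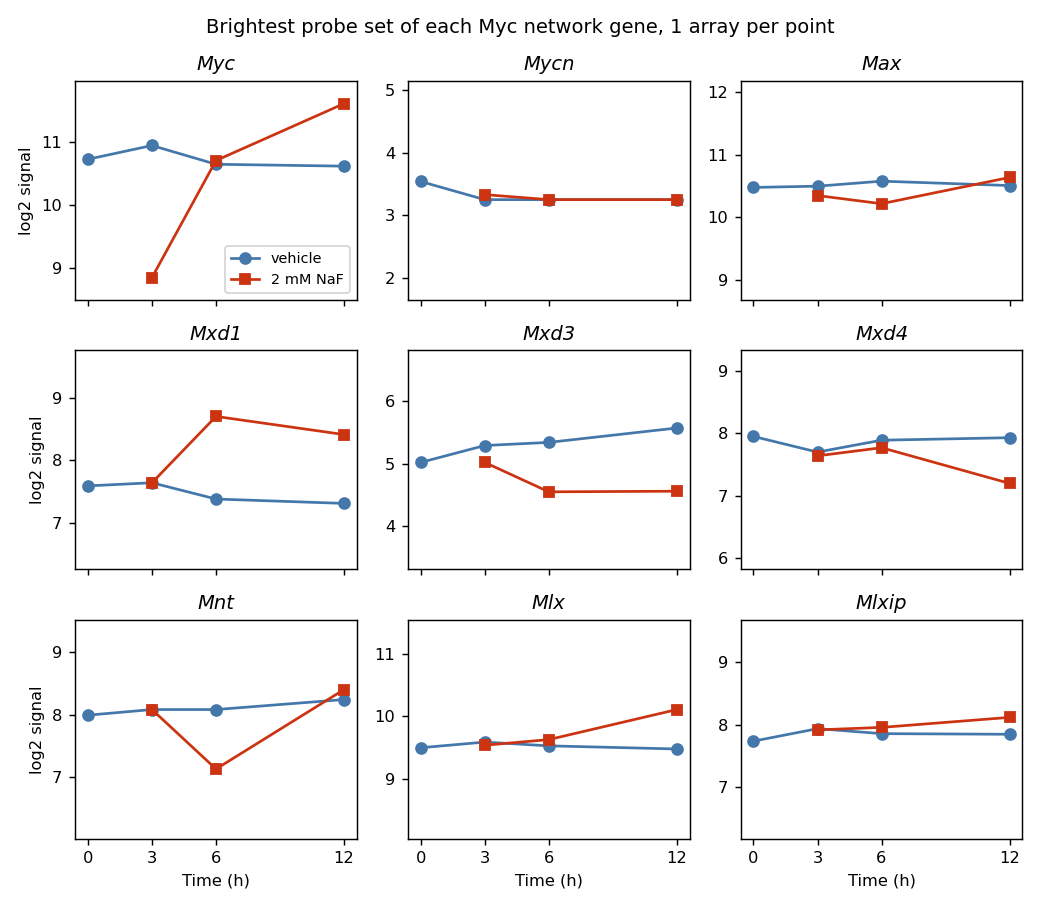
Log2 signal (y axis) against time in h (x axis) for the brightest probe set of each of the 9 genes, with 1 array per point, blue circles for vehicle and red squares for 2 mM NaF; every panel spans the same number of log2 units. Myc was at 8.84 at 3 h of NaF and at 11.62 at 12 h, whereas vehicle stayed between 10.62 and 10.95.

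Max, the obligate partner of Myc, moved far less than Myc. Its brightest probe set read 10.48, 10.50, 10.58 and 10.51 in vehicle, with an SD of 0.04, and 10.35, 10.22 and 10.64 with NaF. The NaF arrays of 3 and 6 h were below all vehicle arrays and that of 12 h was just above them, with changes of -0.15, -0.36 and 0.13. The dimmer Max probe set read 6.68, 6.31, 6.91 and 6.93 in vehicle, with an SD of 0.29, and 6.37, 6.75 and 7.54 with NaF. Its changes were 0.05, -0.16 and 0.60, and it reached the limit for testing through the 12 h NaF array alone. The change of Myc minus that of Max came to -1.96, 0.41 and 0.88 at the brightest probe sets.

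The antagonists did not move as a group. Mxd1, which replaces Myc on Max as epithelial cells differentiate, was higher from 6 h. It read 7.59, 7.64, 7.38 and 7.31 in vehicle, with an SD of 0.16, and 7.64, 8.70 and 8.41 with NaF. Its NaF arrays of 6 and 12 h were above all vehicle arrays, with changes of 0.00, 1.31 and 1.10, a signal 2.49-fold and 2.14-fold higher at the later times. Myc was back among the vehicle arrays at 6 h, when Mxd1 stood highest, and the change of Myc minus that of Mxd1 was -2.11, -1.26 and -0.09.

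Mxd3 and Mxd4 were lower at 12 h. Mxd3, the family member of cells in S phase, read 5.02, 5.29, 5.34 and 5.57 in vehicle, with an SD of 0.22, and 5.02, 4.55 and 4.56 with NaF. Its changes were -0.27, -0.80 and -1.01, and the NaF arrays of 6 and 12 h were below all vehicle arrays. All of these signals were under the limit for testing, where the background of the array narrows a fold, here 2.01-fold lower at 12 h. The vehicle arrays themselves spread, and against the 0 h array the changes were 0.00, -0.48 and -0.46. Mxd4, found mostly in cells that have stopped dividing, read 7.95, 7.70, 7.89 and 7.93 in vehicle, with an SD of 0.11, and 7.64, 7.77 and 7.20 with NaF. Its changes were -0.06, -0.12 and -0.73, a signal 1.66-fold lower at 12 h. The NaF arrays of 3 and 12 h were below all vehicle arrays, that of 3 h by less than the vehicle range of 0.25.

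Mnt, the antagonist that most cells express throughout the cycle, was lower at 6 h. It read 7.99, 8.08, 8.08 and 8.24 in vehicle, with an SD of 0.10, and 8.08, 7.13 and 8.40 with NaF. The changes were 0.00, -0.95 and 0.17, a signal 1.94-fold lower at 6 h, and the 12 h array was above all vehicle arrays by less than the vehicle range of 0.25. The changes of exactly 0 for Mxd1 and Mnt at 3 h came from identical deposited values, which 1824 of 31099 probe sets (5.87%) shared between the vehicle and NaF arrays of 3 h. The change of Myc minus that of Mnt was -2.11, 1.01 and 0.84, that minus Mxd3 was -1.84, 0.85 and 2.01, and that minus Mxd4 was -2.05, 0.17 and 1.74. Against Mnt and Mxd4 Myc stood lower at 3 h and higher at 12 h, whereas against Mxd1 it stood lower at 3 and 6 h and level at 12 h. The differences from Mxd3 rest on a probe set near the array median, and their sizes are uncertain.

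Mlx and Mlxip differed most at 12 h. The brightest probe set of Mlx, the alternative partner, read 9.50, 9.59, 9.53 and 9.48 in vehicle, with an SD of 0.05, and 9.54, 9.63 and 10.11 with NaF. Its changes were -0.04, 0.10 and 0.63, a signal 1.55-fold higher at 12 h. The other Mlx probe set read 8.42 to 8.57 in vehicle and 8.40, 8.69 and 8.94 with NaF, with changes of -0.03, 0.13 and 0.37, so both probe sets were above all vehicle arrays at 6 and 12 h. Mlxip, which carries signals of glucose metabolites to the nucleus with Mlx, read 7.74, 7.94, 7.86 and 7.85 in vehicle, with an SD of 0.08, and 7.92, 7.96 and 8.12 with NaF. Its changes were -0.02, 0.11 and 0.27. The dimmer Mlxip probe set read 5.48 to 5.92 in vehicle and 5.52, 5.32 and 5.49 with NaF, and showed no such difference, with changes of 0.04, -0.17 and 0.00.

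**Figure D2:**
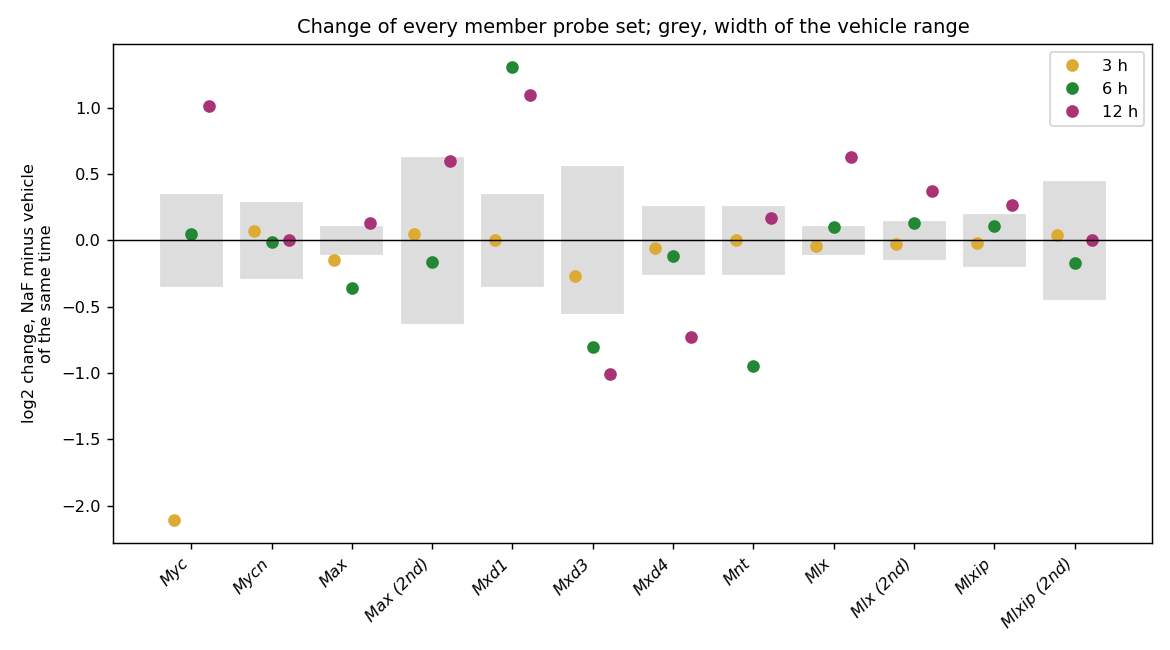
Log2 change, NaF minus vehicle at equal time (y axis), for each of the 12 probe sets (x axis) at 3 h (yellow), 6 h (green) and 12 h (purple), each point 1 NaF array minus 1 vehicle array. Grey bars reach the vehicle range of the probe set above and below 0; Myc at 3 and 12 h, Mxd1 and Mxd3 at 6 and 12 h, Mnt at 6 h, the brighter Max probe set at all 3 times, and Mxd4, both Mlx probe sets and the brighter Mlxip probe set at 12 h lay outside them.

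Counted at the brightest probe set of each gene, 0 of 9 members were above and 3 below (Myc, Max and Mxd4) all vehicle arrays at 3 h, against 24.3% and 25.0% of 14218 genes. At 6 h, 3 were above (Mxd1, Mlx and Mlxip) and 4 below (Max, Mxd3, Mnt and Mycn, the last by 0.01 or less against its 3 h to 12 h vehicle arrays), against 31.0% and 30.5%. At 12 h, 6 were above, all members but Mycn, Mxd3 and Mxd4, and 2 were below, against 31.1% and 37.0%. Of the 12 member probe sets, 1 differed by 2-fold or more at 3 h (Myc), 1 at 6 h (Mxd1) and 3 at 12 h (Myc, Mxd1 and Mxd3), against 0.933%, 3.11% and 5.62% of all 31099 probe sets. At 2.5-fold the counts were 1, 0 and 0, against 0.379%, 1.4% and 2.53%. Since the members were chosen on these differences, nothing is read from the counts.

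The other network genes were level or dim, apart from a difference of Mga at 12 h. Mxi1, the remaining Mxd family member on the array, read 8.86 to 9.09 in vehicle and 8.80, 8.93 and 8.92 with NaF at its tested probe set, and did not pass the test at 3, 6 or 12 h. Mga, which joins Max in a repressor complex, was under the limit for testing at all 3 of its probe sets. The brightest read 6.02 to 6.23 in vehicle and 5.93, 5.96 and 6.81 with NaF, a change of 0.79 at 12 h, and the other pair changed by 0.31 and 0.23. With all probe sets tested, the brightest Mga probe set was called higher at 12 h (limma adjusted p = 0.011). Mycl and Mlxipl were dim too, with changes between -0.36 and 0.01 and between -0.08 and 0.05.

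Genes that act on or under the network were taken from lists and tested. The lists were chosen with earlier results of these data known, so their counts and shares are not independent of these arrays. In limma, the NaF array of each time was set against all 4 vehicle arrays together. Its spread was assumed to equal theirs, and they are pools taken at different times, so the adjusted p-values do not measure the variation among NaF experiments. The 3 comparisons share the vehicle arrays. Of 7653 tested genes, 2.68% passed an adjusted p of 0.05 upward and 6.42% downward at 3 h, with 17.0% upward and 22.4% downward at 6 h and 30.0% upward and 32.0% downward at 12 h, and the median change over them was -0.04, 0.00 and 0.00. Of the 16 list genes called at 3 h, 1 kept its call in all 10 alternative fits, Zfp36, which reached the limit for testing through its NaF arrays alone, and the others lost it without at least 1 vehicle array. At 12 h, 71 of 86 kept theirs.

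Of 77 tested genes that Myc is known to activate, out of 89 listed, 3 rose and 6 fell at 3 h, 11 rose and 21 fell at 6 h, and 44 rose and 14 fell at 12 h. The shares were 3.9% and 7.79% at 3 h, beside 2.68% and 6.42% of all tested genes. At 6 h they were 14.3% and 27.3%, beside 17.0% and 22.4%, so the shares of both times were near those of all genes. At 12 h they were 57.1% and 18.2%, beside 30.0% and 32.0%, with a median change of 0.39. At 3 h, when Myc was at its lowest, the median was -0.06. The counts of 3 h rested on single arrays, with 0 rising and 0 falling without the 6 h vehicle array, 0 and 3 without the 0 h array and 1 and 1 without the 12 h array, and at 6 h 12 fell without the 6 h vehicle array.

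Ribosome biogenesis, a well-known program under Myc, held most of the rises at 12 h. Of its 28 tested genes, 26 rose at 12 h (92.9%), with a median change of 0.67 and a range of -0.19 to 1.19 over the list, and 24 of the 26 kept their call in the 10 alternative fits. The share falling was 3.57%, and the shares of all tested genes at 12 h were 30.0% rising and 32.0% falling. With a further threshold of 1.5-fold, 19 rose. Gnl3, the nucleolar GTPase nucleostemin, changed by 0.17, 0.61 and 1.19 at 3, 6 and 12 h (limma adjusted p = 0.00022 at 12 h), and Nle1, a factor of large subunit assembly, by 0.00, 0.37 and 0.97 (limma adjusted p = 0.00076 at 12 h). Fbl, the methyltransferase of rRNA, was the member not called, at 0.16, and Ubtf, a factor of RNA polymerase I, was the 1 that fell, by 0.19, but this did not pass if the 6 h or the 12 h vehicle array was omitted.

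At 3 h, 2 genes of this list fell and 0 rose, and both were lower at 3 h and higher at 12 h, as Myc was. Ppan, a factor of large subunit maturation, changed by -1.18, -0.73 and 0.65 (limma adjusted p = 0.0085, 0.0049 and 0.0076). Rrs1, which loads 5S particles onto the ribosome, changed by -0.69, -0.32 and 0.96 (limma adjusted p = 0.036, 0.035 and 0.0013). Both calls at 3 h were lost without the 6 h vehicle array, and that of Rrs1 also without the 0 or the 12 h array. The 6 h call of Rrs1 was lost without the 0 or the 6 h vehicle array and with all probe sets tested. At 6 h, when Myc was among the vehicle arrays, 3 genes of the list rose and 7 fell, of which 3 falls were called without the 6 h vehicle array and 2 with all probe sets tested. The shares rising and falling were 0.0% and 7.14% at 3 h, beside 2.68% and 6.42% of all tested genes. At 6 h they were 10.7% and 25.0%, beside 17.0% and 22.4%. The 5S rRNA control of the array read 4.90 to 5.46 in vehicle and 5.67, 6.65 and 6.00 with NaF, and its part in the values of this list was not tested. CACGTG was in the promoter windows of 9 of 26 ribosome biogenesis genes with a window (34.6%), Gnl3 and Nle1 among them. The median change at 12 h was 0.48 over the 9 with the motif and 0.72 over the 16 tested genes without it.

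The other activated groups were divided. Of 14 tested genes of nucleotide, polyamine and one-carbon synthesis, 7 rose and 3 fell at 12 h, with a median of 0.19. Odc1, the rate-limiting enzyme of polyamine synthesis, changed by 0.55, 1.21 and 1.71 and Mthfd2, a mitochondrial folate enzyme, by 0.25, 0.58 and 1.52 (limma adjusted p = 0.00027 and 0.00037 at 12 h). Odc1 was thus called higher at 3 h, when Myc was at its lowest, although not if the 0, 3 or 6 h vehicle array was omitted. Of 11 genes of glycolysis and transport, 5 rose and 1 fell at 12 h, shares of 45.5% and 9.09% beside the same 30.0% and 32.0%. The risers were transporters and the transferrin receptor, led by the amino acid carriers Slc7a5 at 0.60, 1.25 and 2.56 and Slc1a5 at 0.77, 1.16 and 2.14, whereas the glycolytic enzyme Ldha fell by 0.26. Slc7a5, Slc1a5 and Mthfd2 are also known targets of ATF4, the factor of amino acid and endoplasmic reticulum stress.

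Of 12 genes of translation and chaperones, 5 rose and 2 fell at 12 h, or 1 without the 6 h vehicle array, with a median of 0.12. The shares of this list at 12 h were 41.7% and 16.7%, beside 30.0% and 32.0% of all tested genes. Eef1e1, a scaffold of tRNA synthetases, changed by 0.56 and Eif4e, the cap-binding factor, by 0.50 at 12 h. Apex1, a DNA repair endonuclease, fell at all 3 times, with changes of -0.44, -1.40 and -0.39. The cell cycle targets fell more often than they rose at each time, at 12 h unlike ribosome biogenesis: of 12 tested, 1 rose and 3 fell at 3 h, 1 rose and 7 fell at 6 h and 1 rose and 7 fell at 12 h, with medians of -0.17, -0.34 and -0.43. The shares of the cell cycle list were 8.33% and 25.0% at 3 h and 8.33% and 58.3% at both 6 and 12 h. Those of all tested genes were 2.68% and 6.42%, 17.0% and 22.4%, and 30.0% and 32.0%. Id2, an inhibitor of differentiation factors, changed by -1.21, -1.73 and -1.07, and its other tested probe set by -1.13, -1.88 and -1.40. Mcm5, a helicase subunit of DNA replication, fell by 1.02 and Tk1, thymidine kinase, by 1.03 at 12 h; both were named after their values were seen. The 1 gene that rose was Fosl1, an AP-1 subunit, at 0.75, 1.76 and 1.81. For Apex1, Id2 and Fosl1, omitting the 0, 6 or 12 h vehicle array each ended the call at 3 h. The other cell cycle genes that fell at 3 h, Cks1b and Cdca7, lost the call without the 6 or the 12 h array. The direction of that list at 3 h thus rested on single vehicle arrays. At 6 h Cks1b and Mcm4 also lost the call without the 6 or the 12 h array.

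**Figure D3:**
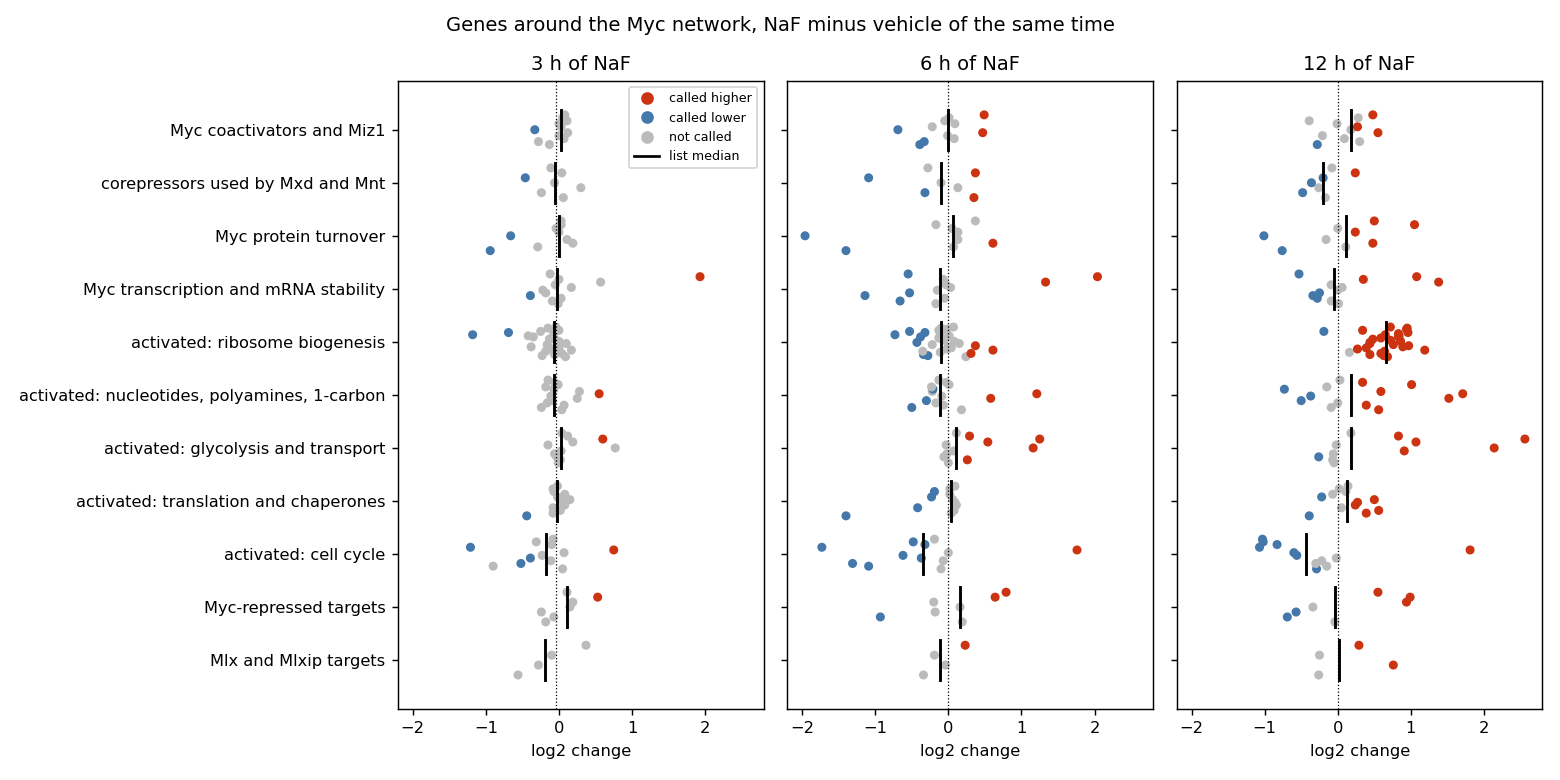
Log2 change, NaF minus vehicle at equal time (x axis), for the tested genes of 11 lists (y axis) at 3, 6 and 12 h of NaF, each point 1 gene; red and blue mark genes called higher and lower by limma, grey those not called. Black bars are list medians and the dotted line is the median over all tested genes; the ribosome biogenesis median moved from -0.06 and -0.09 at 3 and 6 h to 0.67 at 12 h.

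Of 7 tested genes that Myc represses with Miz1 or by other routes, 1 rose at 3 h, 2 rose and 1 fell at 6 h, and 3 rose and 2 fell at 12 h. The shares rising and falling were 14.3% and 0.0% at 3 h, beside 2.68% and 6.42% of all tested genes. At 6 h they were 28.6% and 14.3%, beside 17.0% and 22.4%, and at 12 h 42.9% and 28.6%, beside 30.0% and 32.0%. Without the 6 h vehicle array 0 fell at 12 h, and without the 12 h array 1 did. Gadd45b and Gadd45a, growth arrest genes, changed by 0.99 and 0.94 at 12 h, when Myc was high. Ndrg1 changed by 0.55 at 12 h and was called, although not if the 6 or the 12 h vehicle array was omitted. The 2 that fell at 12 h were Cdkn1b, with changes of -0.07, -0.93 and -0.69, and Cebpa, with -0.24, -0.18 and -0.57 at its brightest probe set. Both 12 h calls were lost with all probe sets tested, and that of Cebpa also without the 3, 6 or 12 h vehicle array. The values of the 3 other tested probe sets of Cebpa are not given here. Cdkn1b was called lower at 6 h too. At 3 h, when Myc was low, Gadd45b changed by 0.53 and was called, although not if the 3, 6 or 12 h vehicle array was omitted, and Gadd45a changed by 0.19 and was not. Of the 4 targets of Mlx and Mlxip, Txnip and its relative Arrdc4, both of which restrain glucose uptake, were called higher at 12 h. Arrdc4 changed by -0.28, -0.04 and 0.76 at 3, 6 and 12 h. Txnip changed by 0.37, 0.23 and 0.29, with its largest change at 3 h, where it was not called. It was called higher at 6 h too, although not if the 6 or the 12 h vehicle array was omitted. At their brightest probe sets, Mlx and Mlxip were higher at 12 h but changed by -0.04 and -0.02 at 3 h. Arrdc3 and Klf10 were not called at any time.

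The cofactors were divided as well. Among 11 tested coactivators and Miz1, 0 rose and 1 fell at 3 h, 2 rose and 3 fell at 6 h, and 3 rose and 1 fell at 12 h. The shares were 0.0% and 9.09% at 3 h, beside 2.68% and 6.42% of all tested genes. At 6 h they were 18.2% and 27.3%, beside 17.0% and 22.4%, and at 12 h 27.3% and 9.09%, beside 30.0% and 32.0%. Without the 0 h or the 3 h vehicle array, 2 fell at 12 h. Kat5, an acetyltransferase that Myc recruits, changed by 0.12, 0.47 and 0.55, and Zbtb17, which encodes Miz1, by 0.08, 0.49 and 0.48. Ruvbl1, a helicase of the same complexes, changed by -0.33, -0.69 and 0.18, and omitting any 1 of the 4 vehicle arrays ended its call at 3 h. Among 7 tested corepressors of Mxd and Mnt, 0 rose and 1 fell at 3 h, 2 rose and 2 fell at 6 h, and 1 rose and 3 fell at 12 h, the last 14.3% and 42.9% beside 30.0% and 32.0% of all tested genes. Sin3a, a scaffold that Mxd proteins bind, changed by -0.46, -1.09 and -0.20, with its largest fall at the time when Mxd1 was highest and Mnt lowest. Omitting the 6 or the 12 h vehicle array ended the calls of Sin3a at 3 and 12 h. Its paralog Sin3b went the other way, with changes of 0.04, 0.37 and 0.24 at its brightest probe set, and was called higher at 6 and 12 h. The deacetylase Hdac2 fell by 0.48 and the histone-binding Rbbp7 by 0.36 at 12 h.

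Regulators of the Myc protein and mRNA changed in both directions. Among 9 tested genes of protein turnover, 0 rose and 2 fell at 3 h, 1 rose and 2 fell at 6 h, and 4 rose and 2 fell at 12 h. At 3 h this was 0.0% and 22.2%, beside 2.68% and 6.42% of all tested genes. The shares were 11.1% and 22.2% at 6 h and 44.4% and 22.2% at 12 h, beside 17.0% and 22.4%, and 30.0% and 32.0%, of all tested genes. The mitotic kinases Aurka and Plk1, which stabilize Myc family proteins in some cells, changed by -0.94, -1.40 and -0.76 and by -0.66, -1.96 and -1.01. Both calls at 3 h, and that of Aurka at 12 h, did not hold when the 3 or the 6 h vehicle array was omitted, nor for Plk1 without the 12 h array. Usp36, a nucleolar deubiquitinase that stabilizes Myc, changed by 0.03, -0.17 and 1.05 (limma adjusted p = 0.00019 at 12 h), so it was higher at the time when Myc mRNA was. The other genes of this list that rose at 12 h were Gsk3b, Usp37 and Ppp2r5a, at 0.48, 0.50 and 0.24. Gsk3b, a kinase of Myc turnover, changed by 0.19, 0.61 and 0.48 and was called higher at 6 h too. The ubiquitin ligase subunit Fbxw7 changed by -0.29, 0.07 and 0.11 and was not called.

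Among 12 tested genes of Myc transcription and mRNA stability, 1 rose and 1 fell at 3 h, 2 rose and 4 fell at 6 h, and 3 rose and 4 fell at 12 h. At 3 h this was 8.33% and 8.33%, beside 2.68% and 6.42% of all tested genes. The shares were 16.7% and 33.3% at 6 h and 25.0% and 33.3% at 12 h, beside 17.0% and 22.4%, and 30.0% and 32.0%, of all tested genes. Zfp36, which binds AU-rich elements and speeds the decay of short-lived mRNAs, changed by 1.93, 2.04 and 1.08 (limma adjusted p = 0.0019, 0.00049 and 0.00095). Zfp36 read 6.75 to 7.05 in vehicle, under the limit of 7.14, so it was tested through its NaF arrays alone, where it was high. To be tested at all, it had to exceed every vehicle array on some NaF array. It was high at 3 h, when Myc was low, and still high at 12 h, when Myc was high. Prdm1, a repressor of Myc transcription in lymphocytes, changed by 0.57, 1.33 and 1.38 and was called at 6 and 12 h. Prdm1 read 6.33 to 6.93 in vehicle and was likewise tested through its NaF arrays alone, and its call at 6 h was lost with all probe sets tested. These were the 2 list genes of this kind, so the rises of this list are given as values and support nothing. Fubp1, which binds upstream of Myc and activates it, changed by -0.39, -1.14 and -0.34, and omitting the 6 or the 12 h vehicle array ended its call at 3 h.

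The genes most like Myc were sought among 1744 tested probe sets with 1 symbol and a range of at least 1 log2 unit. Each gene was taken once, at its best-ranked probe set, and its other probe sets were not compared. Over the log2 signals of the 7 arrays, the highest Pearson correlations with Myc were those of Rbak (0.991), Champ1 (0.989), Wdr53 (0.981), Klf6 (0.972) and Zfp217 (0.971). Rbak, a zinc finger repressor that binds the retinoblastoma protein, changed by -2.28, -0.10 and 0.72 beside the -2.11, 0.05 and 1.01 of Myc. It read 6.53 to 6.90 in vehicle, 4.62, 6.55 and 7.33 with NaF, so it reached the limit for testing through the 12 h NaF array alone and its low at 3 h lay under the array median, where the size of a change is uncertain. The other 4 changed by -0.81 to -1.08 at 3 h and by 0.32 to 0.65 at 12 h. The lowest correlations were those of Klf7 (-0.855), Akap13 (-0.839), Cblb (-0.816), Arid1b (-0.81) and Cdyl2 (-0.808), which were higher at 3 h and lower at 12 h. Cdyl2 too read under the limit in vehicle, at 6.66 to 6.98. The points are 7 arrays, of which the 3 NaF arrays hold nearly all of the spread, so the coefficients describe shape over those arrays and carry no test.

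**Figure D4:**
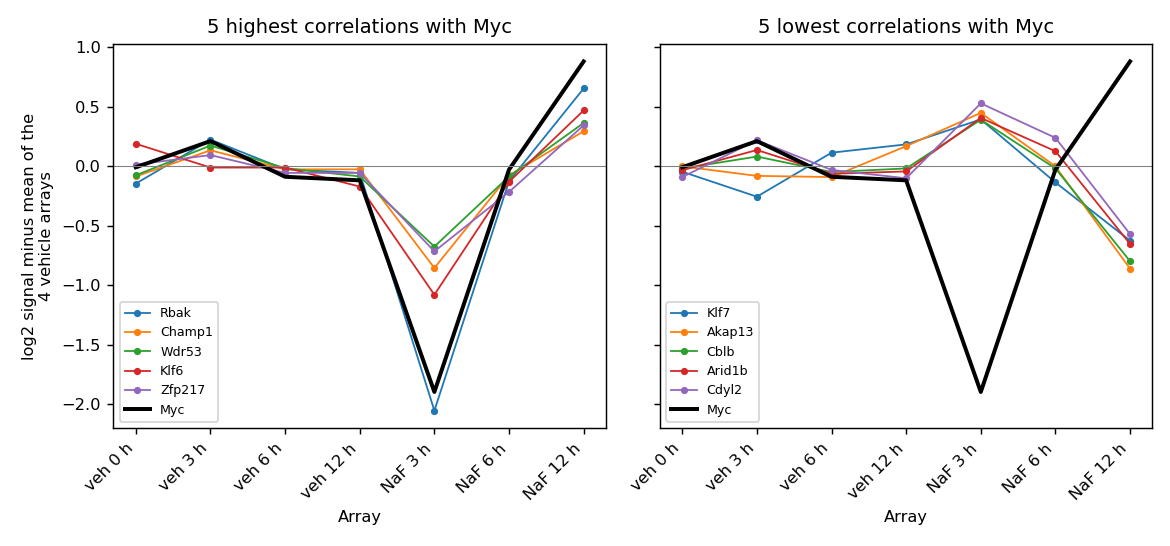
Log2 signal minus the mean of the 4 vehicle arrays (y axis) on each of the 7 arrays (x axis) for Myc (black) and the 5 genes with the highest (left) and lowest (right) Pearson correlation with it. On the 3 h NaF array Rbak lay near Myc, and the other 4 genes of the left panel were low by a smaller amount.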

How the data were processed

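The authors pooled RNA of 3 independent experiments per condition, hybridized 7 Affymetrix rat genome arrays and used GeneSpring GX, for which a version and a normalization method were not given in the sources used here. Their deposited log2 signals of 31099 probe sets were used as deposited. The label of 1 array says only control; its time of 0 h comes from the methods of the study. Probe sets were named through the platform annotation (20832 with 1 symbol, 436 with several, 9831 with none), and none was named from several symbols. A gene was represented by its probe set of highest mean signal, except in the correlations with Myc, where it stood at its best-ranked probe set.

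The members and the gene lists were chosen with earlier results of these data known. limma 3.58.1 in R 4.3.3 (lmFit, eBayes, Benjamini-Hochberg over the brightest probe sets, adjusted p under 0.05) compared each NaF array with the 4 vehicle arrays, with 3 residual and 2.68 prior degrees of freedom, and was tested on simulated data. The median vehicle SD was 0.0794, and the number of arrays limits the precision. Named were all members and other network genes, and the 5 genes most and least correlated with Myc. From each list the 2 called genes that changed most at 3 h and at 12 h were named. Others were chosen after their values were seen, among them Mcm5, Tk1, Ldha, Fbl, Ubtf, Fbxw7, Sin3b, Ndrg1, Cdkn1b, Cebpa, Gsk3b, Usp37 and Ppp2r5a. Promoters were read with pandas 2.3.3 from the RefSeq table. Alternatives were other scalings, filters, baselines, a variance trend, averaged probe sets, a further 1.5-fold threshold and each vehicle array left out; for the members other than Myc, the 0 h baseline, quantile normalization and probe set mean were added after the data were seen.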

Additional observations from a re-analysis of the deposited data

Results flagged for a closer look

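In 4 probe sets of the network, 1 vehicle array stood far from the other 3, a gap that chance alone gives in about 1 of 20 groups of independent values. Where the other 3 arrays read nearly alike, as for Mycn at 3.25 and Mga at 6.02, that rate need not apply. Mycn read 3.54 at 0 h against 3.25 in the others, and the dimmer Mlxip probe set read 5.92 at 0 h against 5.48 to 5.49. Of the Mga probe sets, 1 read 4.87 at 0 h against 5.41 to 5.51, and another read 6.23 at 3 h against 6.02. All 4 were under the limit for testing.

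Some changes lay outside the vehicle arrays in opposite directions at different times. Myc differed by 3.11 between its changes at 12 and 3 h. Max differed by 0.28 between 12 and 3 h and by 0.49 between 12 and 6 h, and Mnt by 1.12 between 12 and 6 h. The dimmer Mlx probe set differed by 0.16 between 6 and 3 h and by 0.41 between 12 and 3 h. With 1 array per condition, these differences were not tested.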

How the results depend on the processing

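The Myc change at 3 h was -2.11 against the 3 h vehicle array, -1.89 against the vehicle mean and -1.88 against 0 h. At 12 h it was 1.01 against the 12 h vehicle array and 0.89 against the vehicle mean and against 0 h. Of the other members, the Mxd3 change at 3 h came to 0.00 against 0 h and the Mlxip change at 6 h turned to -0.03 with the mean of its probe sets. Under the alternatives, 103 member changes moved by less than the vehicle SD and 30 by more without turning. Against 0 h, Mxd3 moved from -1.01 to -0.46 and Mnt from 0.17 to 0.42 at 12 h, Mxd4 from -0.06 to -0.31 and Mlxip from -0.02 to 0.18 at 3 h, and Mxd1 from 1.10 to 0.82 at 12 h. With 2.5-fold in place of 2-fold, 0 member probe sets passed at 6 h and 0 at 12 h, and with the vehicle mean as baseline 0 passed 2-fold at 12 h. Of the activated targets, 3 h counts were 5 higher after quantile normalization, 0 higher and 1 lower with all probe sets tested, and 3 lower with 1.5-fold added. With a vehicle array left out they were 0 to 2 higher and 0 to 6 lower. At 6 h, 13 were lower with all probe sets tested, 5 higher and 6 lower with 1.5-fold added, and 12 to 20 lower with an array left out. At 12 h, 29 were higher and 6 lower with 1.5-fold added. The other settings left these counts within 1.5 times. For the named list genes, 794 calls under an alternative fell on the same side of the threshold, 68 lost and 8 gained it, and 0 reversed. Over all tested genes, 3 h calls fell from 205 higher and 491 lower to 44 and 88 with all probe sets tested, and to 45 and 107 without the 6 h vehicle array; the cause was not tested. No replicate block was fitted, since the labels carry no replicate numbers and matching by time leaves 1 pair of arrays per time.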
